A study of Mus musculus with 18 samples.

Results

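The BCL2 family of apoptosis regulators was followed through 10 genes in irradiated mouse bone marrow. The genes were chosen by name, as the BH3-only genes Bbc3, Pmaip1, Bmf, Bcl2l11 and Bid, the effectors Bax and Bak1, and the guardians Bcl2, Bcl2l1 and Mcl1. Earlier results of these data were known at that choice, so counts of members called describe these genes and do not test the family. All 10 have a probe among 17178 genes on the array, and all 10 were among the 11884 genes tested. The members' brightest probes were well above background on all 18 arrays.

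BCL2 family proteins set whether the outer membrane of mitochondria stays closed. When BAX and BAK1 are freed to form pores, cytochrome c leaves the mitochondrion and caspases are switched on. The guardians BCL2, BCL-XL and MCL1 hold the effectors and BH3-only proteins in check, and the BH3-only proteins, made or activated under stress, bind the guardians or push the effectors. In blood-forming tissue the family is known for the p53-driven death of lymphoid and progenitor cells after radiation, in which PUMA, the product of Bbc3, is a main killer.

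Marrow came from female C3H mice, an inbred strain, and carried no engineered allele. The irradiated groups received 2 Gy of gamma rays at 0.6 Gy per minute and were sampled 6 h or 24 h later, and their controls are unirradiated mice, each at 8 weeks and at 1 week of age. Each of the 6 groups has 3 arrays of separate mice, hybridised in 1 colour, and the study's title asks how progenitor survival and chemokine induction depend on age. Whole marrow is a mixture, so a lower value cannot tell fewer cells of a type from less RNA per cell.

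Values below are log2 signal above the array's 75th percentile, called the level, so 0 lies at that percentile. Levels of different genes come from different probes and are not set against each other. A difference is a difference of group mean levels with its standard error (SE) from a limma fit over all 18 arrays. A gene is called at an adjusted p under 0.05, adjusted over the 11884 genes within a comparison.

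Between 51.05 and 62.09% of probes were well above background on an array. The raw 75th percentile was 461.5 to 574.1 on irradiated arrays and 637.7 to 727.6 on unirradiated arrays, without overlap. Subtracting it raises irradiated arrays relative to unirradiated ones, compared with raw signal, so small differences after irradiation depend on this scaling. Why the percentile is lower on irradiated arrays was not tested. All 11 late neutrophil, 8 erythroid and 5 early granulocyte markers measured were well above background on every array. One array stood apart: in unirradiated 1-week replicate 2 the summed level of skeletal muscle markers was 8.35, against 2.25 and 2.70 in its 2 fellow arrays, and that of cartilage markers 8.15, against 1.03 and 1.43. Without it the numbers of members called were 7 and 9 at 8 weeks (6 h and 24 h), 8 and 7 at 1 week and 6 for age, as with it. At 1 week and 24 h the members differed, however: Mcl1 lost its call (0.10, adjusted p = 0.2) and Bcl2l11 gained one (-0.20, adjusted p = 0.0342).

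After 2 Gy, read from the brightest probes, Bbc3, Bax and Pmaip1 rose and Bmf fell at both ages and both times. The other members were called at some ages and times only. Other probes of some members, Bmf and Mcl1 among them, differed from this, as given below. At 8 weeks, 7 of the 10 members were called at 6 h (6 higher and 1 lower), where 46% of all genes were called, and 9 at 24 h (7 higher and 2 lower), where 57.8% were. At 1 week, 8 were called at 6 h (6 higher and 2 lower), against 51.8% of all genes, and 7 at 24 h (6 higher and 1 lower), against 36%. Over all genes, the share called higher was 23.9% at 8 weeks and 6 h, 38.3% at 8 weeks and 24 h, 25.5% at 1 week and 6 h and 18.4% at 1 week and 24 h. The share called lower was 22.1, 19.5, 26.3 and 17.6% in the same order. The median difference over the members was 0.32 and 0.46 at 8 weeks (6 h and 24 h) and 0.40 and 0.27 at 1 week. Over all genes tested it was 0.02, 0.12, 0.00 and -0.01 in the same order, so differences at 8 weeks and 24 h stand against a shift of 0.12. Arrays of the irradiated and unirradiated groups did not overlap for 9 and 9 members at 8 weeks and for 8 and 7 at 1 week, against 55.3, 69.5, 55.8 and 48.1% of all genes. The comparisons at 1 age share the 3 unirradiated arrays of that age.

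**Figure D1:**
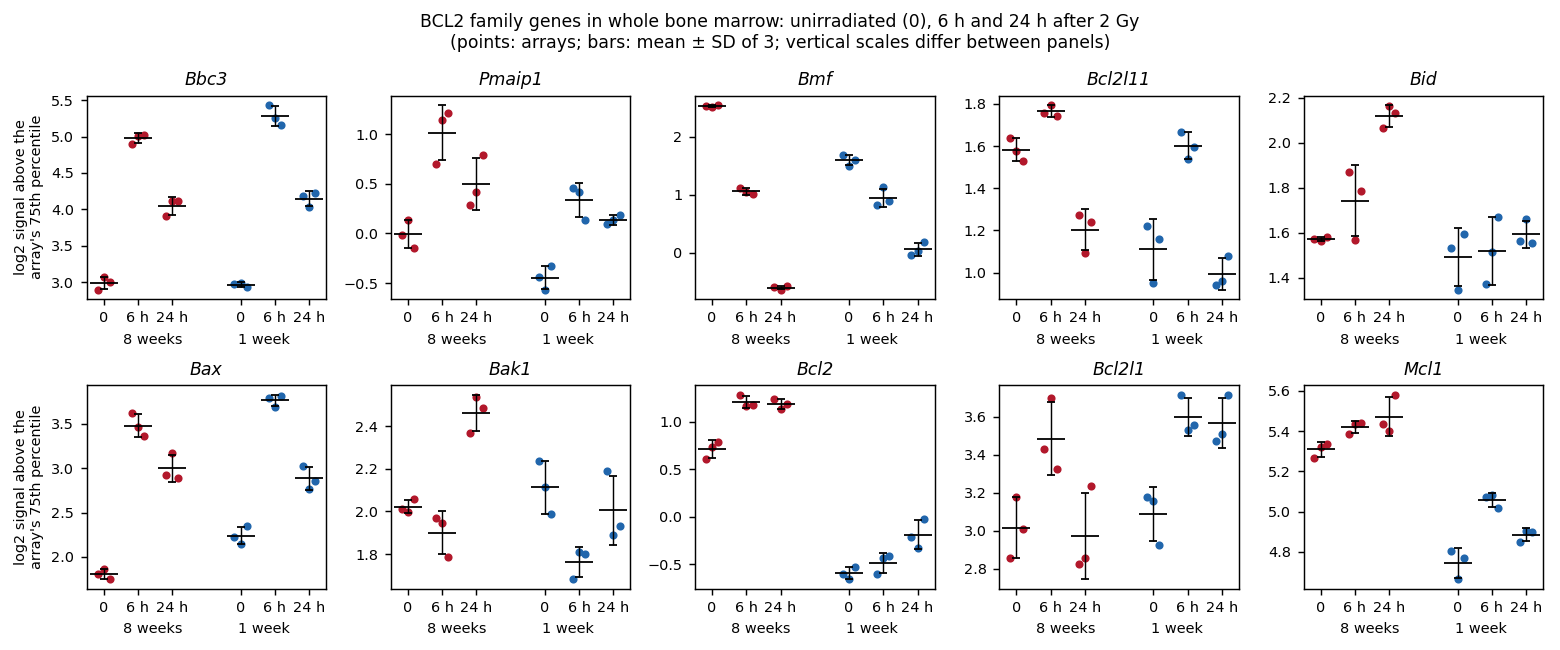
Level of each of the 10 members (log2 signal above the array's 75th percentile, vertical axis) on every array, with 8 weeks at the left and 1 week at the right of each panel and unirradiated, 6 h and 24 h marrow in that order; points are arrays and bars the mean ± SD of 3. Bbc3, Bax and Pmaip1 stand highest at 6 h at both ages, Bmf is lowest at 24 h, and Bcl2 and Mcl1 are higher at 8 weeks in all groups.

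Among the BH3-only genes, Bbc3 (chr7:16308398-16318334, GRCm38.p6) encodes PUMA, which binds all the guardians. At 8 weeks Bbc3 had levels of 4.89, 5.01 and 5.02 at 6 h, against 2.90, 3.07 and 3.002 on unirradiated arrays. At 24 h its levels were 3.91, 4.12 and 4.11. Every 6 h array was higher than every 24 h array, and every 24 h array than every unirradiated one. The difference from unirradiated marrow was 1.98 ± 0.08 (SE) at 6 h, a 3.96-fold rise (adjusted p = 1.18e-11), and 1.06 ± 0.08 at 24 h (adjusted p = 1.1e-08). At 1 week Bbc3 had levels of 5.43, 5.26 and 5.16 at 6 h and 4.18, 4.03 and 4.23 at 24 h, against 2.98, 2.99 and 2.94 on unirradiated arrays. The order of the 3 groups was the same, again without overlap. The differences were 2.31 ± 0.08 at 6 h, or 4.97-fold (adjusted p = 2.22e-12), and 1.18 ± 0.08 at 24 h (adjusted p = 9.18e-09). From 6 h to 24 h the level of Bbc3 fell by 0.93 at 8 weeks and by 1.14 at 1 week (adjusted p = 1.25e-07 and 4.56e-08), and at 24 h it was still above the unirradiated arrays. Unirradiated levels of Bbc3 differed by 0.02 between 8 weeks and 1 week (95% interval -0.14 to 0.18, adjusted p = 0.825). The 6 h rise was smaller at 8 weeks by 0.33 ± 0.11 (adjusted p = 0.0439). That call was lost without any 1 of 10 arrays (adjusted p 0.0527 to 0.115) and under 5 of 11 other processing settings.

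Bax (chr7:45461695-45466903), the effector whose gene is a textbook p53 target, rose at both ages and times. Its levels at 8 weeks were 3.62, 3.46 and 3.36 at 6 h and 2.93, 3.17 and 2.89 at 24 h, against 1.80, 1.87 and 1.75 on unirradiated arrays. All irradiated arrays were above all unirradiated ones, and the 6 h arrays above the 24 h arrays. The differences were 1.68 ± 0.09 at 6 h, or 3.19-fold (adjusted p = 5.41e-10), and 1.19 ± 0.09 at 24 h, or 2.28-fold (adjusted p = 1.14e-08). At 1 week the levels of Bax were 3.79, 3.69 and 3.81 at 6 h and 3.03, 2.77 and 2.86 at 24 h, against 2.23, 2.15 and 2.34 on unirradiated arrays. The groups were again apart, with a smaller step left at 24 h. There the differences were 1.52 ± 0.09 at 6 h (2.88-fold, adjusted p = 1.78e-09) and 0.64 ± 0.09 at 24 h (1.56-fold, adjusted p = 2.62e-05). Unirradiated Bax was lower at 8 weeks than at 1 week, by a difference of -0.43 ± 0.09 (adjusted p = 0.000348). The 24 h response of Bax was larger at 8 weeks by 0.55 ± 0.12 (adjusted p = 0.00219), while at 6 h the ages differed by 0.15 (95% interval -0.11 to 0.41, adjusted p = 0.418).

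Pmaip1, which encodes NOXA, a BH3-only protein that binds MCL1, rose less. At 8 weeks its levels were 0.70, 1.14 and 1.21 at 6 h and 0.29, 0.42 and 0.79 at 24 h, against -0.02, 0.14 and -0.14 on unirradiated arrays. At 1 week they were 0.46, 0.42 and 0.14 at 6 h and 0.09, 0.13 and 0.19 at 24 h, against -0.44, -0.57 and -0.33 on unirradiated arrays. All irradiated arrays of an age were above its unirradiated ones, but the 6 h and 24 h arrays overlapped. The differences at 8 weeks were 1.02 ± 0.14 at 6 h (2.04-fold, adjusted p = 2.88e-05) and 0.51 ± 0.14 at 24 h (adjusted p = 0.00514). At 1 week they were 0.78 ± 0.14 at 6 h (adjusted p = 0.000188) and 0.58 ± 0.14 at 24 h (adjusted p = 0.00355). The age differences of these responses were 0.24 at 6 h (95% interval -0.18 to 0.66) and -0.08 at 24 h (95% interval -0.49 to 0.34), neither called. Unirradiated Pmaip1 was higher at 8 weeks by 0.44 ± 0.14 (adjusted p = 0.011). That last call was lost without unirradiated 8-week replicate 2 (adjusted p = 0.0536) and with slide as a block (adjusted p = 0.0751).

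Promoter windows of 300 bases (250 before and 50 after a RefSeq transcript start, GRCm38.p6) were available for 9 members, in 16 windows. They are shown for the 2 p53-responsive genes with a large rise, since p53 is the known link between radiation and these genes. A p53 half-site, searched by its standard consensus on both strands, occurs in 8.36% of 32841 such windows. The Bax window (chr7:45466849-45467148, minus strand) holds 1, in capitals, 201 bases before the start. None of the 3 Bbc3 windows holds it. Bbc3 window 2 (chr7:16310011-16310310, plus strand) holds a forkhead motif, GTAAACA searched on both strands and shown in capitals as its reverse complement, 167 bases before the start. That motif occurs in 3.65% of windows and shares no base with a half-site here. A match describes letters, not binding.
Bax promoter: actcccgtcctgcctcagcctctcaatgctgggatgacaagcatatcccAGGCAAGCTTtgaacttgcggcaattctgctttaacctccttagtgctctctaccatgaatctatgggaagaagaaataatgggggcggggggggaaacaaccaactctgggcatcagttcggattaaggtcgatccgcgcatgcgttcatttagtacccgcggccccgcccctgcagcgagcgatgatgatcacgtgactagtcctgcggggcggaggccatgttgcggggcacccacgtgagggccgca
Bbc3 promoter 2: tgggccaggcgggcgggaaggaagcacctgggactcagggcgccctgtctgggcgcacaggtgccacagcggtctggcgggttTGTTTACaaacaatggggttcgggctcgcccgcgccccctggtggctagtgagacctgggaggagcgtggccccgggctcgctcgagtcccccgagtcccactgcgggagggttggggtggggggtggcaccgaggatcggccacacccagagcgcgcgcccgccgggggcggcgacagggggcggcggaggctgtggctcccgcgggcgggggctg

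Bmf (chr2:118528757-118549686) encodes a BH3-only protein that associates with motor complexes of the cytoskeleton, and its fall at 24 h was the largest difference of any member in that comparison at each age. Its levels at 8 weeks were 1.12, 1.04 and 1.01 at 6 h and -0.59, -0.64 and -0.58 at 24 h, against 2.53, 2.52 and 2.55 on unirradiated arrays. The 3 groups were far apart, and arrays of a group close together. The differences of Bmf were -1.47 ± 0.08 at 6 h (2.78-fold lower, adjusted p = 5.56e-10) and -3.13 ± 0.08 at 24 h (8.77-fold lower, adjusted p = 2.76e-14). At 1 week its levels were 0.82, 1.13 and 0.89 at 6 h and -0.05, 0.03 and 0.19 at 24 h, against 1.68, 1.50 and 1.60 on unirradiated arrays. The order of the groups was the same, with smaller steps. The differences there were -0.65 ± 0.08 at 6 h (1.57-fold lower, adjusted p = 3.72e-06) and -1.54 ± 0.08 at 24 h (2.91-fold lower, adjusted p = 5.43e-10).

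Bmf also differed with age alone: unirradiated marrow was higher at 8 weeks by 0.94 ± 0.08, or 1.91-fold (adjusted p = 2.74e-08). The fall was deeper at 8 weeks, by a difference of -0.82 ± 0.11 at 6 h (adjusted p = 0.000143) and -1.59 ± 0.11 at 24 h (adjusted p = 1.51e-07). At 6 h the levels of the ages overlapped. At 24 h the 8-week arrays were below the 1-week arrays, although unirradiated 8-week arrays were above unirradiated 1-week arrays. The other 2 probes of Bmf are dim, well above background on 11 and 6 of 18 arrays. The third was called lower at 24 h, by -1.02 at 8 weeks (adjusted p = 0.0169) and -1.22 at 1 week (adjusted p = 0.0108). It was well above background on all 3 arrays in unirradiated 8-week marrow only, and on 0 arrays at 24 h at either age. It entered the test through that unirradiated group, so a lower call was favoured in advance and is no separate support. The second gave -0.78 at 8 weeks and 24 h, which was not called (adjusted p = 0.126). At 1 week and 6 h, where the brightest probe was lower, the second gave 0.30 (adjusted p = 0.582) and the third 0.13 (adjusted p = 0.767). With the mean over the 3 probes the 1-week call at 6 h was lost (-0.07, adjusted p = 0.808), and so were the age calls of Bmf, at 0.43 in unirradiated marrow (adjusted p = 0.0954) and -0.63 for the 24 h response (adjusted p = 0.116).

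B-cell precursor markers were lower after irradiation, as Bmf was. Of 10 tested, 10 were lower at 8 weeks at each time, and 9 at 1 week at each time. Their summed level at 8 weeks was 6.66 to 6.99 at 6 h and 6.40 to 6.54 at 24 h, against 8.20 to 8.32 on unirradiated arrays. In 1-week marrow it was 6.77 to 6.87 at 6 h and 6.30 to 6.41 at 24 h, against 8.18 to 8.35. Rag2 was well above background on no array, and Pax5 on none at 24 h at either age. In unirradiated marrow the summed level of mature B-cell markers was 5.50 to 5.59 at 8 weeks and 3.76 to 3.98 at 1 week, with 8 of 8 called higher at 8 weeks. After irradiation that sum at 8 weeks was 5.21 to 5.50 at 6 h and 4.60 to 4.84 at 24 h. At 1 week, where Bmf also fell, it was 3.95 to 4.16 at 6 h and 4.04 to 4.33 at 24 h, with 3 of 8 markers called higher and 2 lower at each time. The part of these markers in the values of Bmf was not tested.

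**Figure D2:**
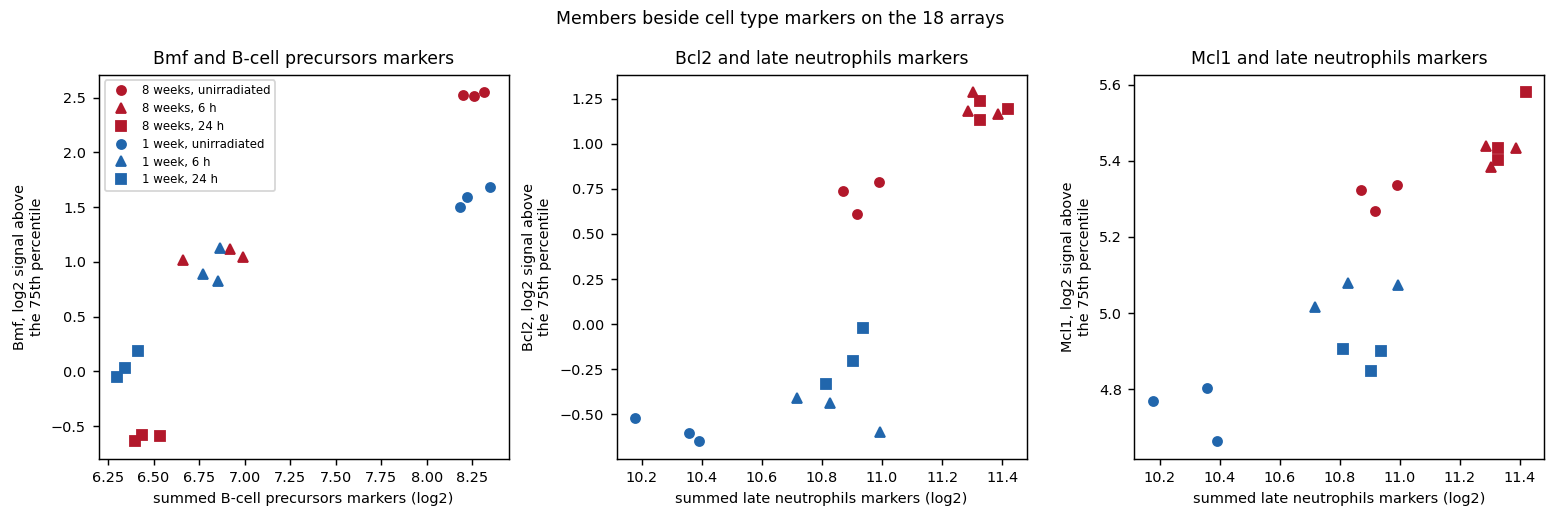
Levels of Bmf, Bcl2 and Mcl1 (vertical axes, log2 signal above the 75th percentile) by their brightest probes on 18 arrays, against the summed level of B-cell precursor markers (for Bmf) or late neutrophil markers (for Bcl2 and Mcl1), with ages and times after irradiation marked. Bmf is low where the precursor sum is low, and in unirradiated marrow it is higher at 8 weeks although the precursor sums of the ages overlap; Bcl2 and Mcl1 are highest on irradiated 8-week arrays, which have the highest neutrophil sums.

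Bcl2l11 (chr2:128126038-128162547) encodes BIM, a BH3-only protein known for culling lymphocytes and under control of FOXO factors. At 8 weeks its levels were 1.76, 1.80 and 1.74 at 6 h and 1.27, 1.09 and 1.24 at 24 h, against 1.64, 1.58 and 1.53 on unirradiated arrays. In 1-week marrow they were 1.67, 1.54 and 1.59 at 6 h and 0.94, 0.96 and 1.08 at 24 h, against 1.22, 0.95 and 1.16. The 6 h arrays were the highest at each age, and the 24 h arrays lay below the unirradiated ones at 8 weeks and among them at 1 week. The 6 h differences were 0.18 ± 0.07 at 8 weeks (adjusted p = 0.0456) and 0.49 ± 0.07 at 1 week (adjusted p = 2.84e-05). The 24 h differences were -0.38 ± 0.07 at 8 weeks (adjusted p = 0.000258) and -0.12 ± 0.07 at 1 week (adjusted p = 0.219). Without unirradiated 1-week replicate 2, the array with muscle and cartilage signal, the 1-week value was -0.20 and was called (adjusted p = 0.0342). The 8-week call at 6 h was lost without any 1 of 10 arrays (adjusted p up to 0.141). The level of the brightest probe fell between 6 h and 24 h at both ages, by 0.56 at 8 weeks and 0.61 at 1 week (adjusted p = 7.95e-06 and 8.77e-06). Unirradiated Bcl2l11 was higher at 8 weeks by 0.47 ± 0.07 (adjusted p = 2.16e-05).

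A second probe of Bcl2l11 did not move the same way. At 8 weeks and 24 h it was higher, by 0.43 (adjusted p = 0.00629), where the brightest probe was lower. For age in unirradiated marrow it gave -0.26, not called, where the brightest probe was higher, and the mean of both gave 0.11 (adjusted p = 0.176). The 8-week fall at 24 h is therefore a value of 1 probe. The age difference of the 24 h response was -0.26 for the brightest probe (adjusted p = 0.0446) and 0.57 for the second (adjusted p = 0.0133), opposite calls.

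The windows that hold a motif among the 2 BH3-only genes that were lower at 8 weeks and 24 h are shown for comparison with those above. Bmf window 3 (chr2:118544538-118544837, minus strand) holds a p53 half-site, in capitals, 213 bases before its start. Bcl2l11 window 1 (chr2:128125788-128126087, plus strand) holds GTAAACA, in capitals, 227 bases before its start. So the half-site occurs in a member that fell and in one that rose.
Bmf promoter 3: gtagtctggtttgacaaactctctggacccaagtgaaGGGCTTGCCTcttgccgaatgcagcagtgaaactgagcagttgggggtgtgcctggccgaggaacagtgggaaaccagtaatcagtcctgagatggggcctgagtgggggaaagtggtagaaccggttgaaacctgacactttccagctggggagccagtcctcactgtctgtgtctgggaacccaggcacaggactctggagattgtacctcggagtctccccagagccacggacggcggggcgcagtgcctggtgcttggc
Bcl2l11 promoter 1: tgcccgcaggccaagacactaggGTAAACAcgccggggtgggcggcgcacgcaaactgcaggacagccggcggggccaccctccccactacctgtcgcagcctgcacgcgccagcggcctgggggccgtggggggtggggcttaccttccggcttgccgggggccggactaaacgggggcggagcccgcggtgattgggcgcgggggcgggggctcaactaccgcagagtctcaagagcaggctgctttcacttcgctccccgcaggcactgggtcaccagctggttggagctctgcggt

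Bid (chr6:120893119-120917062), whose protein is cut by caspase-8 and carries death receptor signals to mitochondria, was called in 1 of the 4 irradiation comparisons. At 8 weeks its levels were 1.87, 1.57 and 1.79 at 6 h and 2.07, 2.16 and 2.13 at 24 h, against 1.57, 1.56 and 1.58 on unirradiated arrays. The 24 h arrays were above all others, and the 6 h arrays overlapped the unirradiated ones. The difference was 0.55 ± 0.09 at 24 h (1.46-fold, adjusted p = 4.35e-05) and 0.17 ± 0.09 at 6 h (adjusted p = 0.112). At 1 week the levels were 1.37, 1.51 and 1.67 at 6 h and 1.56, 1.66 and 1.55 at 24 h, against 1.53, 1.35 and 1.60, and all groups overlapped. The differences there were 0.03 at 6 h (95% interval -0.15 to 0.21) and 0.10 at 24 h (95% interval -0.08 to 0.28). The 24 h response was larger at 8 weeks by 0.45 ± 0.12 (adjusted p = 0.00727), a call lost with another background correction (0.32, adjusted p = 0.105).

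Bak1 (chr17:27019812-27028627), the second effector, did not follow Bax. At 8 weeks its levels were 1.97, 1.94 and 1.78 at 6 h and 2.37, 2.54 and 2.48 at 24 h, against 2.01, 2.00 and 2.06 on unirradiated arrays. At 1 week they were 1.68, 1.81 and 1.80 at 6 h and 2.19, 1.89 and 1.93 at 24 h, against 2.24, 2.11 and 1.99. The 24 h arrays were the highest at 8 weeks, and the 6 h arrays the lowest at 1 week. Bak1 rose at 8 weeks and 24 h by 0.44 ± 0.08 (1.36-fold, adjusted p = 0.000246) and fell at 1 week and 6 h by 0.35 ± 0.08 (adjusted p = 0.00193). The other differences were -0.12 at 8 weeks and 6 h (adjusted p = 0.235) and -0.11 at 1 week and 24 h (adjusted p = 0.333). The 24 h response was larger at 8 weeks by 0.55 ± 0.12 (adjusted p = 0.00141).

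The second probe of Bak1 gave another pattern. It was higher by 0.56 at 8 weeks and 6 h (adjusted p = 0.0216), by 0.54 at 1 week and 6 h (adjusted p = 0.0218) and by 0.55 at 1 week and 24 h (adjusted p = 0.028). At 8 weeks and 24 h it gave 0.33 (adjusted p = 0.129), and its 24 h response differed between ages by -0.22 (adjusted p = 0.52). The direction for Bak1 at 6 h thus depends on the probe, and the 24 h age difference was 0.16 (adjusted p = 0.376) with the mean of both.

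Markers of early granulocytes, resident macrophages and stromal cells were among those higher on the 8-week 24 h arrays, where Bid and the brightest probe of Bak1 were highest. For early granulocytes at 8 weeks the summed level was 8.89 to 9.09 at 6 h and 9.71 to 9.92 at 24 h, against 9.02 to 9.08 on unirradiated arrays. Of 5 markers tested, 5 were called higher at 24 h. At 1 week the summed level was 8.05 to 8.21 at 6 h and 8.09 to 8.27 at 24 h, against 8.42 to 8.59, and 5 of 5 were called lower at 6 h. All 5 were well above background on every array. For resident macrophages the summed level at 8 weeks and 24 h was 7.56 to 7.70, against 5.67 to 5.94 on unirradiated arrays, and 9 of 9 were called higher (median difference 1.58). For stromal fibroblasts and osteoblasts it was 6.54 to 6.78, against 4.59 to 5.03, with 8 of 8 called higher (median difference 1.84). The median difference for early granulocytes there was 0.90. At 8 weeks and 6 h, 8 of 9 macrophage (median difference 0.59) and 8 of 8 stromal markers (1.13) were also called higher. At 1 week and 24 h 8 macrophage (0.73) and 3 stromal markers (0.44) were. Neither Bid nor the brightest probe of Bak1 was called in those comparisons. At 1 week and 6 h, where that Bak1 probe was lower, 6 macrophage markers were called lower and 1 higher. The part of these lists in the values of Bid and Bak1 was not tested.

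Among the guardians, Bcl2 (chr1:106538176-106714290), known for keeping lymphocytes alive, had the largest age difference of all members. Its levels at 8 weeks were 1.29, 1.16 and 1.18 at 6 h and 1.24, 1.13 and 1.19 at 24 h, against 0.61, 0.74 and 0.79 on unirradiated arrays. In 1-week marrow they were -0.60, -0.44 and -0.41 at 6 h and -0.21, -0.33 and -0.02 at 24 h, against -0.61, -0.65 and -0.52. All 9 arrays at 8 weeks were above all 9 at 1 week. Unirradiated Bcl2 was higher at 8 weeks by 1.31 ± 0.08, or 2.47-fold (adjusted p = 9.82e-10). Bcl2 rose after irradiation at 8 weeks, by 0.50 ± 0.08 at 6 h (adjusted p = 0.000125) and 0.48 ± 0.08 at 24 h (adjusted p = 9.15e-05). At 1 week it rose at 24 h by 0.41 ± 0.08 (adjusted p = 0.000794), and the 6 h difference was 0.11 ± 0.08 (adjusted p = 0.258). The 6 h response was larger at 8 weeks by 0.39 ± 0.11 (adjusted p = 0.0254).

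A second Bcl2 probe, of another transcript, carried the age difference but not the response. It gave 1.14 for age (adjusted p = 1.69e-06) and 0.16, 0.01, 0.04 and 0.03 after irradiation (8 weeks at 6 h and 24 h, 1 week at 6 h and 24 h), none called. With the mean of both probes the 1-week rise at 24 h was 0.22 (adjusted p = 0.0808), and the age difference of the 6 h response was no longer called.

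Mcl1 (chr3:95656944-95663179), a short-lived guardian needed by stem cells and granulocytes, had small differences. Its levels at 8 weeks were 5.39, 5.43 and 5.44 at 6 h and 5.43, 5.40 and 5.58 at 24 h, against 5.27, 5.32 and 5.34 on unirradiated arrays. At 1 week they were 5.07, 5.08 and 5.02 at 6 h and 4.85, 4.91 and 4.90 at 24 h, against 4.80, 4.66 and 4.77. Irradiated arrays were above unirradiated ones at each age, by little, and 8-week arrays above 1-week arrays by more. Mcl1 rose at 1 week and 6 h by 0.31 ± 0.05 (1.24-fold, adjusted p = 0.000115). The 24 h differences were 0.16 ± 0.05 at 8 weeks (adjusted p = 0.0135), which became -0.02 under quantile normalization, and 0.14 ± 0.05 at 1 week (adjusted p = 0.0473). The 8-week call was lost without unirradiated 8-week replicate 1 or 8-week 24 h replicate 3 (adjusted p up to 0.0883), and the 1-week call without any 1 of 12 arrays (adjusted p up to 0.2) and under 7 of 11 other settings. At 8 weeks and 6 h the difference was 0.11 (adjusted p = 0.0945). Unirradiated Mcl1 was higher at 8 weeks by 0.56 ± 0.05, or 1.48-fold (adjusted p = 1.15e-07). A second probe of Mcl1 was called higher in all 4 irradiation comparisons, by 0.41 and 0.48 at 8 weeks (6 h and 24 h) and 0.45 and 0.32 at 1 week. Its age difference was 0.05 (adjusted p = 0.546), so the age difference rests on the brightest probe.

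Late neutrophil markers were higher in each comparison where the brightest probe of Bcl2 or Mcl1 rose. They were also higher at 6 h where the brightest probe of Bcl2 (1 week) or Mcl1 (8 weeks) was not called. At 8 weeks and 6 h the second Mcl1 probe was called higher (0.41, adjusted p = 0.000167). The neutrophil markers were called higher after irradiation for 10 and 11 of 11 at 8 weeks (6 h and 24 h) and 11 and 11 at 1 week. With age, 10 of 11 were called higher. Their summed level at 8 weeks was 11.3 to 11.4 at 6 h and 11.3 to 11.4 at 24 h, against 10.9 to 11.0 on unirradiated arrays. At 1 week it was 10.7 to 11.0 at 6 h and 10.8 to 10.9 at 24 h, against 10.2 to 10.4. Every marker of the list was well above background on every array. Other lists were also higher at 8 weeks in unirradiated marrow: 8 of 8 mature B-cell markers (median difference 1.68), 6 of 6 NK-cell markers (1.63) and 6 of 6 monocyte markers (1.38), against a median of 1.1 for late neutrophils. The summed level of NK-cell markers was 4.04 to 4.15 at 8 weeks and 2.57 to 2.74 at 1 week, and that of monocyte markers 7.70 to 7.77 at 8 weeks and 6.11 to 6.42 at 1 week. The part of any of these lists in Bcl2 and Mcl1 was not tested.

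Bcl2l1 (chr2:152758732-152833803) encodes BCL-XL, known for the survival of red cell precursors and platelets. Its levels at 8 weeks were 3.43, 3.70 and 3.32 at 6 h and 2.83, 2.86 and 3.23 at 24 h, against 2.86, 3.18 and 3.01 on unirradiated arrays. In 1-week marrow they were 3.71, 3.53 and 3.55 at 6 h and 3.47, 3.51 and 3.72 at 24 h, against 3.18, 3.16 and 2.92. Irradiated arrays were above unirradiated ones apart from 24 h at 8 weeks, where they overlapped. The 6 h differences were 0.47 ± 0.12 at 8 weeks (adjusted p = 0.00493) and 0.51 ± 0.12 at 1 week (adjusted p = 0.00192). The 24 h differences were -0.04 ± 0.12 at 8 weeks (95% interval -0.30 to 0.21) and 0.48 ± 0.12 at 1 week (adjusted p = 0.00507). The age difference of the 24 h response was -0.52 ± 0.17 (adjusted p = 0.021), and its 2 other probes gave -0.51 each (adjusted p = 0.00587 and 0.0144). Leaving out any 1 of 5 arrays lost the call for the brightest probe (adjusted p 0.0543 to 0.0584), namely unirradiated and 24 h replicates 3 at 1 week, unirradiated replicate 2 and 24 h replicates 1 and 2 at 8 weeks. Unirradiated levels differed between ages by -0.07 (95% interval -0.32 to 0.18) for the brightest probe. The second probe was called lower at 8 weeks there (-0.25, adjusted p = 0.0313), and the third gave -0.10 (adjusted p = 0.441).

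Erythroid markers moved partly with Bcl2l1. Of 8 tested, 7 were called higher at 1 week and 6 h, 5 at 1 week and 24 h and 5 at 8 weeks and 6 h. At 8 weeks and 24 h 2 were higher and 5 lower. Their summed level, which the brightest genes dominate, was 10.9 to 11.0 at 6 h and 10.8 to 11.0 at 24 h at 8 weeks, against 10.59 to 10.64 on unirradiated arrays. At 1 week it was 11.1 to 11.3 at 6 h and 10.99 to 11.1 at 24 h, against 10.6 to 10.8. All 8 were well above background on every array. Of 6 megakaryocyte markers, 0 were called at 8 weeks and 6 h or at 1 week at either time, where Bcl2l1 rose. At 8 weeks and 24 h, where it was not called, 5 were higher (median difference 0.71). In unirradiated marrow 6 of 6 megakaryocyte and 5 of 8 erythroid markers were lower at 8 weeks, where the brightest Bcl2l1 probe was not called. The second Bcl2l1 probe was called lower there (-0.25, adjusted p = 0.0313). The part of either list in Bcl2l1 was not tested.

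**Figure D3:**
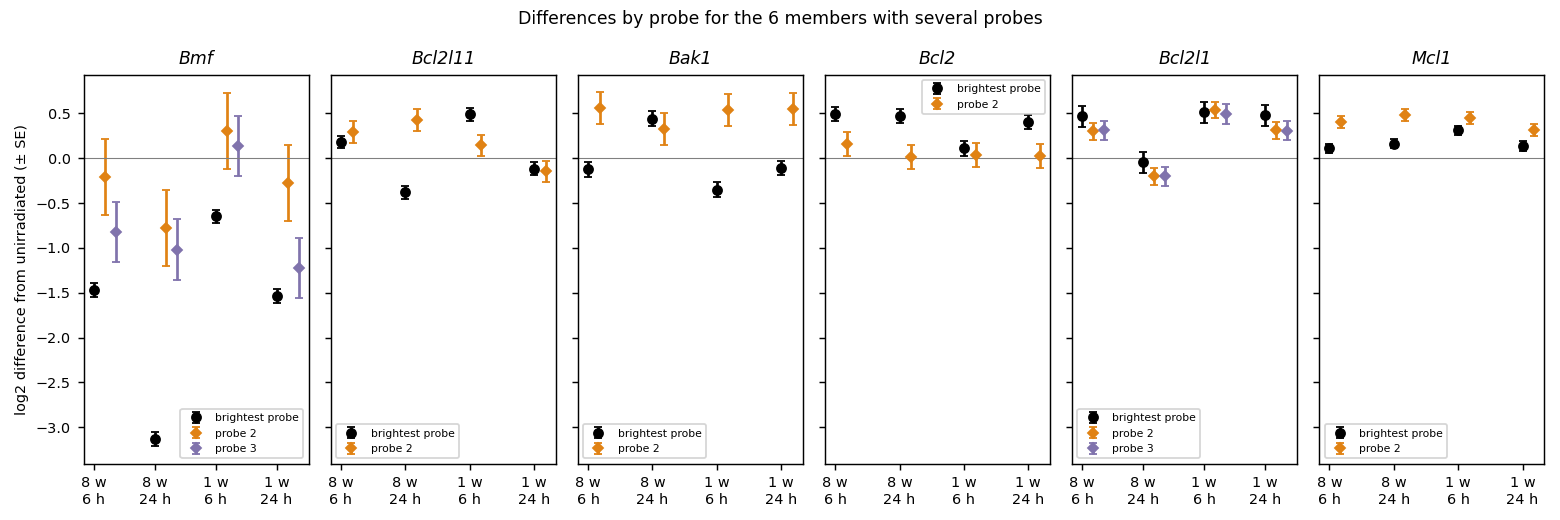
Log2 difference from unirradiated marrow ± SE (vertical axis) for each probe of the 6 members with more than 1 probe, in the order 8 weeks 6 h, 8 weeks 24 h, 1 week 6 h and 1 week 24 h. The 3 Bcl2l1 probes move alike. Other probes of Bmf, Bak1 and Bcl2l11 lie on the other side of 0 from the brightest in some comparisons.

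With age alone, 6 of the 10 members were called in unirradiated marrow, against 64.9% of all genes. Bcl2, Bmf, Mcl1, Bcl2l11 and Pmaip1 were higher at 8 weeks and Bax was lower, where 27.4% of all genes were higher and 37.5% lower. Arrays of the 2 ages did not overlap for 6 members, against 69.9% of all genes. The median difference was 0.26 over the members and -0.09 over all genes. Of the differences between ages in the response, 4 members were called at 6 h (Bcl2 with a higher response at 8 weeks, and Bbc3, Bmf and Bcl2l11 with a lower one), against 18.6% of all genes (10.5% higher and 8.09% lower). At 24 h 6 were called, Bax, Bak1 and Bid with a higher response at 8 weeks and Bmf, Bcl2l11 and Bcl2l1 with a lower one, against 42.1% of all genes (28.5% higher and 13.5% lower). Over all genes the median difference of the 24 h response was 0.11, and over the members -0.03. The number called at 6 h ran from 1 to 5 over other settings, and from 1 to 4 when 1 array was left out. Without unirradiated 1-week replicate 2, the array with muscle and cartilage signal, it was 2 at 6 h and 5 at 24 h.

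**Figure D4:**
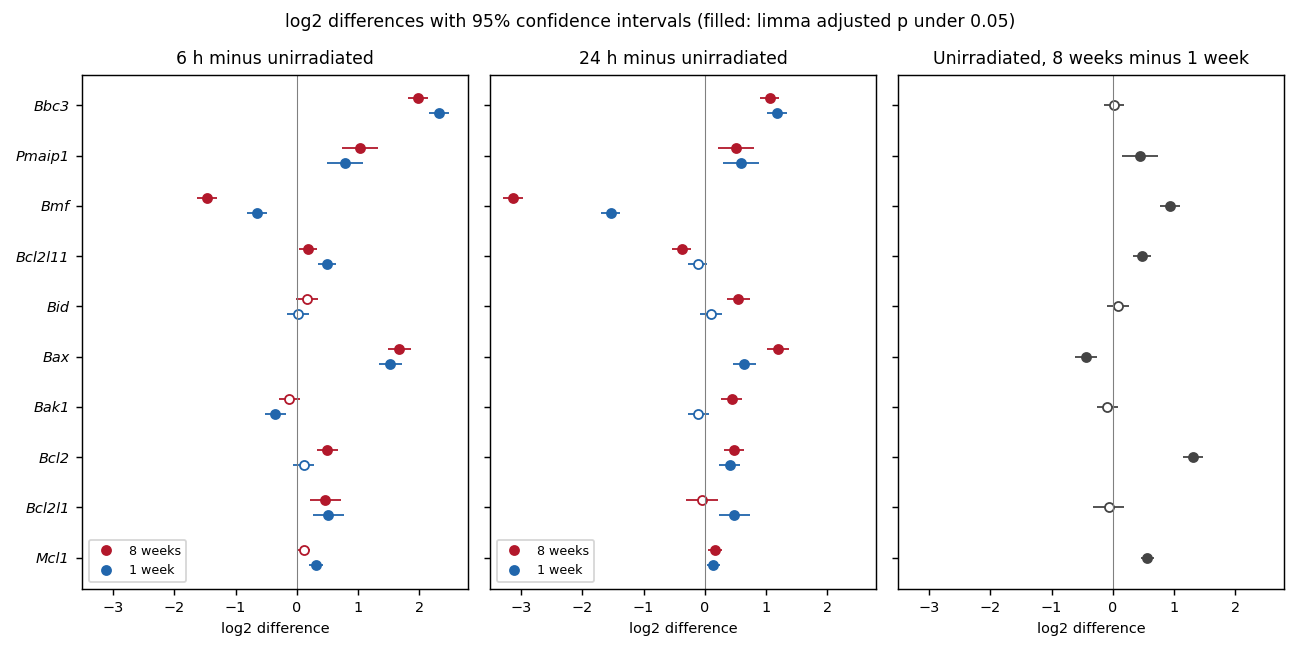
Log2 differences with 95% intervals (horizontal axis) for the 10 members at 6 h and 24 h against unirradiated marrow, with 8 weeks above 1 week, and for 8 weeks against 1 week in unirradiated marrow; filled points have an adjusted p under 0.05. Bbc3 and Bax lie farthest to the right after irradiation and Bmf farthest to the left, and Bcl2 lies farthest to the right for age.

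Between 6 h and 24 h the members parted. At 8 weeks 8 were called (2 higher and 6 lower at 24 h), against 49.4% of all genes, and at 1 week 7 (2 higher and 5 lower), against 36.2%. Of all genes, 33% were higher and 16.5% lower at 24 h at 8 weeks, and 18.6% higher and 17.6% lower at 1 week. The 24 h and 6 h arrays did not overlap for 7 members at 8 weeks and 7 at 1 week, against 57.2 and 49.1% of all genes. At both ages Bbc3, Bax, Bmf and Bcl2l11 were lower at 24 h by their brightest probes, and Bak1 was higher by its brightest probe. The other Bcl2l11 probe gave 0.14 at 8 weeks (adjusted p = 0.379) and -0.29 at 1 week (adjusted p = 0.0773). Of the dim Bmf probes, the brighter gave -0.57 and -0.58 (8 weeks and 1 week), neither called. The dimmer gave -0.20 (adjusted p = 0.663) and -1.36 (adjusted p = 0.0059). Bmf and Bcl2l11 kept these calls under all 11 other settings, probe means among them. The second Bak1 probe gave -0.23 at 8 weeks and 0.01 at 1 week, neither called, and the mean of both gave 0.17 (adjusted p = 0.184) and 0.13 (adjusted p = 0.342). Bid was higher by 0.38 ± 0.09 at 8 weeks (adjusted p = 0.00147) and gave 0.07 at 1 week. Bcl2 was higher by 0.30 ± 0.08 at 1 week (adjusted p = 0.00811) and gave -0.02 at 8 weeks, but the 1-week step was 0.14 with the mean of its probes (adjusted p = 0.251). Whether these steps differ between ages was not tested. The Bak1 step at 1 week (0.24, adjusted p = 0.0292) was lost without 6 h replicate 1 or 24 h replicate 1 of 1-week marrow (adjusted p up to 0.172).

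Arrays lie on 5 slides, and where a slide holds both groups the responses can be read within it. Within slides the 8-week difference of Bbc3 was 2.12 at 6 h and 1.11 at 24 h, and that at 1 week was 2.45 at 6 h and 1.19 and 1.09 at 24 h. For Bax the values were 1.56 and 1.14 at 8 weeks and 1.57, 0.88 and 0.42 at 1 week. Those of Bmf were -1.51 and -3.13 at 8 weeks and -0.86, -1.55 and -1.57 at 1 week. These values of Bbc3, Bax and Bmf keep the direction of the pooled values, but each is 1 array minus 1 array, without replication. Some uncalled differences of other members turned within a slide. Bcl2l1 gave 0.22 at 8 weeks and 24 h (pooled -0.04), and Bid -0.16 at 1 week and 6 h (pooled 0.03). Bak1 gave 0.08 on slide 2 at 1 week and 24 h (pooled -0.11).

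Other genes of the pathway were read from lists by role, and each count stands against the shares of all genes called higher and lower in that comparison. Those shares are 23.9 and 22.1% at 8 weeks and 6 h, 38.3 and 19.5% at 8 weeks and 24 h, 25.5 and 26.3% at 1 week and 6 h, and 18.4 and 17.6% at 1 week and 24 h. The lists are short, so their counts describe the genes and do not set a list apart. Of 6 other BCL2 family genes tested, 3 and 3 were called higher at 8 weeks (6 h and 24 h) and 4 and 3 at 1 week, with 1 lower at 1 week and 6 h. Bcl2a1b, a guardian of the A1 group, rose by 0.81 and 1.17 at 8 weeks and by 0.83 and 1.26 at 1 week. Its near-identical copies Bcl2a1a and Bcl2a1d could share its signal. Bnip3l, which marks mitochondria for removal in maturing red cells, rose by 0.56 and 0.39 at 8 weeks and by 0.58 and 0.97 at 1 week. Bcl2l13 rose by 0.28 and 0.16 at 8 weeks and by 0.58 and 0.22 at 1 week. Bnip3 was lower at 1 week and 6 h (-0.46). Bad, Hrk, Bcl2l10 and Bcl2l14 were too dim to test. The median of the list was 0.23 and 0.14 at 8 weeks and 0.46 and 0.45 at 1 week.

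Of 16 genes of caspase activation downstream of mitochondria tested, 1 was higher and 6 lower at 8 weeks and 6 h, and 3 higher and 6 lower at 24 h. At 1 week 5 were higher and 7 lower at 6 h, and 2 higher and 4 lower at 24 h. Apaf1, the scaffold that cytochrome c binds to activate caspase-9, was called higher in 3 comparisons, by 0.43 at 8 weeks and 6 h and by 0.55 and 0.32 at 1 week, and gave 0.05 at 8 weeks and 24 h. Cycs, which encodes cytochrome c, was lower at 6 h (-0.32 at 8 weeks and -0.59 at 1 week) and higher at 8 weeks and 24 h (0.36). Endog, a mitochondrial nuclease, was lower at 6 h by -0.22 at 8 weeks and -0.70 at 1 week, and higher at 8 weeks and 24 h (0.58). Aifm1 was lower at 6 h, by -0.30 at 8 weeks and -0.56 at 1 week. Birc3, an inhibitor of apoptosis protein, was lower at 8 weeks and 24 h (-0.44) and higher at 1 week and 6 h (0.25).

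Of 10 death receptor genes, 4 were higher and 1 lower at 8 weeks and 6 h, and 7 higher and 0 lower at 24 h. At 1 week 5 were higher and 3 lower at 6 h, and 3 higher and 1 lower at 24 h. Fas, a death receptor and p53 target, rose by 0.71 and 0.77 at 8 weeks and by 0.77 and 0.72 at 1 week, and unirradiated Fas was higher at 8 weeks by 1.45. Tnfrsf10b, the mouse TRAIL receptor and also a p53 target, rose by 1.87 ± 0.27 and 1.63 ± 0.27 at 8 weeks and by 1.31 and 1.37 at 1 week. Tnfrsf1a, the main TNF receptor of apoptosis, rose by 0.48 and 0.84 at 8 weeks and by 0.33 and 0.45 at 1 week. Ripk1, the kinase at that receptor, rose by 0.44 at 8 weeks and 24 h.

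Of 13 transcription regulators of the family, 3 were higher and 5 lower at 8 weeks and 6 h, and 4 and 4 at 24 h. At 1 week 3 were higher and 5 lower at 6 h, and 4 and 6 at 24 h. Mdm2, the p53 inhibitor that p53 itself induces, rose by 0.83 and 0.28 at 8 weeks and by 0.96 and 0.63 at 1 week. Trp53, which encodes p53, gave -0.03 (adjusted p = 0.836) and 0.30 (adjusted p = 0.0183) at 8 weeks and 0.23 (adjusted p = 0.0685) and 0.27 (adjusted p = 0.0465) at 1 week. Foxo1, a forkhead factor of B-cell development, fell, with differences of -1.10 and -1.89 at 8 weeks and -0.93 and -1.35 at 1 week. Spib, a B-lineage factor, fell too, with -0.74 and -1.95 at 8 weeks and -0.52 and -1.08 at 1 week. Myb, a progenitor factor, fell less, with -0.53 and -0.44 at 8 weeks and -0.63 and -0.84 at 1 week. E2f1 was lower in 3 of the 4 comparisons, by -0.69 and -0.28 at 8 weeks and -0.32 at 1 week and 24 h.

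Of 11 outer membrane and mitochondrial partners, 1 was higher and 2 lower at 8 weeks and 6 h, and 6 higher and 0 lower at 24 h. At 1 week 1 was higher and 8 lower at 6 h, and 1 higher and 3 lower at 24 h. The medians of the list were -0.09 and 0.18 at 8 weeks and -0.35 and -0.10 at 1 week. Mtch2, the receptor for truncated BID, was lower at 6 h, by -0.33 at 8 weeks and -0.58 at 1 week, and by -0.27 at 1 week and 24 h. Vdac1, a channel of the outer membrane, was lower at 1 week (-0.67 and -0.26) and higher at 8 weeks and 24 h (0.36). Tomm20 was lower at 1 week and 6 h (-0.53) and higher at 8 weeks and 24 h (0.21). Mff, which recruits the fission machinery, was higher at 6 h at both ages (0.33 at 8 weeks and 0.36 at 1 week) and by 0.29 at 1 week and 24 h.

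Of 4 genes of MCL1 ubiquitin control tested, 0 were called at 8 weeks and 6 h or at 1 week and 24 h. At 8 weeks and 24 h 2 were lower, Btrc (-0.61) and Huwe1 (-0.24), a ubiquitin ligase of MCL1. At 1 week and 6 h Btrc was higher (0.43) and Huwe1 lower (-0.25). Fbxw7 and Usp9x were not called in these comparisons.

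**Figure D5:**
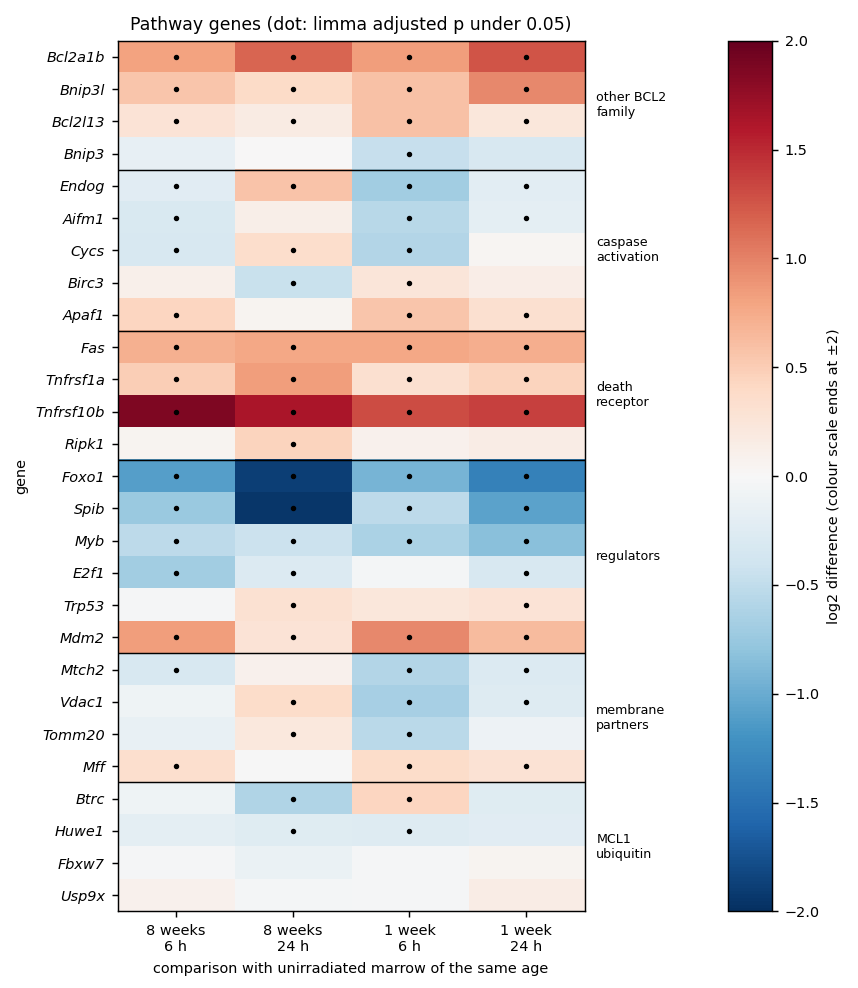
Log2 differences from unirradiated marrow for the named pathway genes (rows, grouped by list) in the 4 irradiation comparisons (columns), with colours ending at 2 and -2 and a dot where the adjusted p is under 0.05. Tnfrsf10b and Bcl2a1b are high in all 4 comparisons, Foxo1 and Spib are low in all 4, and Endog, Cycs, Vdac1 and Tomm20 are lower at 1 week and 6 h and higher at 8 weeks and 24 h.

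The 3 genes most like each member were taken by Pearson correlation of levels over the 18 arrays, a description in which arrays share groups. Bbc3 was most like Ei24 (r = 0.986), Atp6v1d (r = 0.973) and Ccng1 (r = 0.969), the last a p53 target. Bax was most like Commd3 (r = 0.982), Kank3 (r = 0.981) and Ei24 (r = 0.973). Pmaip1 was most like Ier5 (r = 0.946), Sgpp1 (r = 0.940) and Nfe2l2 (r = 0.927). Ei24 was thus on the lists of both Bbc3 and Bax, whose own r was 0.964, while Bbc3 and Pmaip1 had 0.739.

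Bmf was most like Akap12 (r = 0.982), Trib2 (r = 0.981) and Serinc5 (r = 0.974). Bcl2l11 was most like Il4i1 (r = 0.969), Ccdc17 (r = 0.953) and Phf8 (r = 0.948). Bid was most like Pnp (r = 0.961), Dhrs3 (r = 0.943) and Fuca2 (r = 0.943). No gene was shared between these lists.

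Bak1 was most like Slc52a2 (r = 0.958), Tbcb (r = 0.938) and Sdf2l1 (r = 0.937). Bcl2 was most like Ccdc126 (r = 0.988), Crot (r = 0.987) and A530032D15Rik (r = 0.986). Mcl1 was most like Mefv (r = 0.981), Nuak2 (r = 0.980) and Chil3 (r = 0.980), of which Chil3 and Mefv are known from myeloid cells. Bcl2l1 was most like Ube2o (r = 0.951), St3gal5 (r = 0.936) and Xpa (r = 0.910). Ube2o is a ubiquitin enzyme of maturing red cells. Bcl2 and Mcl1 had r = 0.923 with each other, read from their brightest probes.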

How the data were processed

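Whole marrow RNA of 18 mice was hybridised to 1-colour Agilent 4x44K arrays. Per the file headers, the deposited intensity values per spot were background-subtracted by Agilent Feature Extraction (version 11.5.1 per the submitters' processing notes, 9.5.1.1 per the file headers) and not scaled between arrays. Flags per spot (well above background, saturated, outlier) are 0 or 1 in the deposited files. The series matrix, as deposited, holds the authors' log2 values, centred by probe. Compared with array values for 41174 probes it gave r of 0.9999 to 1, with column medians of -0.168 to 0.245, and it served as a check only.

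From the array files, control spots and flagged outlier spots (77 to 123 per array) were left out, log2 signal was averaged per probe, and the array's 75th percentile over non-control probes was subtracted. Names came from RefSeq accessions: 24844 probes had 1 and 16330 had none. The brightest of a gene's probes was used, and other probes were tested over 23341 probes. A gene entered the test if some group had it well above background on its 3 arrays. The fit used limma 3.58.1 (R 4.3.3; files read with data.table, release 1.17.8), 1 mean per group, an intensity trend, and two-sided p adjusted by Benjamini-Hochberg within each of 9 comparisons. The number of arrays, 3 per group, limits the precision. Promoter windows are from RefSeq.

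All 10 members are described. Of each pathway list, up to 4 genes with the smallest adjusted p in a comparison with unirradiated marrow are named, and Trp53, Mdm2, Apaf1 and Fas always. Members and lists were chosen with earlier results of these data known. Replicate numbers are not stated to pair mice, and the main fit did not pair arrays by them. Residuals of 45 same-numbered pairs had r of -0.267 to 0.319, with 9 over 0.1, which cannot exclude a pairing. Recovery of known changes was tested on simulated data. Alternatives were normexp on spot medians, quantile scaling, the percentile of detected probes, no dim filter, probe means, slide and replicate blocks, no trend, the arrays compared alone, and leaving out each array.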

Additional observations from a re-analysis of the deposited data

Results flagged for a closer look

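The responses of some members differed between ages, by an interaction term in the limma fit. Values are log2 differences of the response, 8 weeks minus 1 week, with p adjusted over all genes. At 6 h they were -0.33 for Bbc3 (adjusted p = 0.0439), -0.82 for Bmf (adjusted p = 0.000143), -0.31 for Bcl2l11 (adjusted p = 0.0424) and 0.39 for Bcl2 (adjusted p = 0.0254). At 24 h they were -1.59 for Bmf (adjusted p = 1.51e-07), -0.26 for Bcl2l11 (adjusted p = 0.0446) and -0.52 for Bcl2l1 (adjusted p = 0.021). Also at 24 h they were 0.45 for Bid (adjusted p = 0.00727), 0.55 for Bax (adjusted p = 0.00219) and 0.55 for Bak1 (adjusted p = 0.00141).

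Of these, Bax kept its call whichever array was left out and under all 11 other settings. Bmf kept it whichever array was left out and lost it at both times with probe means. Bak1 lost it with probe means, and Bid with normexp. Bcl2l11 lost its 6 h call without any 1 of 11 arrays (adjusted p up to 0.103) and its 24 h call without any 1 of 9 (adjusted p up to 0.124), and each call under 6 of 11 other settings. Its second probe was called the other way at 24 h (0.57, adjusted p = 0.0133). The 6 h call of Bcl2 was lost without unirradiated replicate 3 or 6 h replicate 1 at 1 week, or unirradiated replicate 1 or 6 h replicate 1 at 8 weeks (adjusted p 0.053 to 0.0691).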

How the results depend on the processing

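Of 62 called member differences over the 9 comparisons, 51 kept direction and call whichever of 18 arrays was left out, and 40 did under all 11 other settings. The members called for the age difference of the 6 h response were 4, and 2 with normexp, no dim filter, slide as a block, no trend or only the arrays compared, 1 with probe means, and 1 to 4 leaving out 1 array. For the 24 h response they were 6, and 3 with probe means. Genes called for the 6 h age difference were 2210, and 1370 with the slide block.

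Signs turned as follows. Probe means gave Bak1 0.09 (1 week, 6 h), 0.22 (1 week, 24 h), 0.22 (8 weeks, 6 h) and 0.05 (age), Bcl2l11 0.02 (8 weeks, 24 h) and 0.16 (24 h age difference), Trp53 0.05 (8 weeks, 6 h), Mtch2 0.00 (1 week, 24 h) and Huwe1 0.08 (1 week, 6 h), where probes of a gene disagree. Quantile scaling gave Mcl1 -0.02 (8 weeks, 24 h), -0.14 (24 h age difference) and -0.07 (24 h against 6 h at 8 weeks), and the percentile of detected probes -0.03 and 0.00 for the last 2. Normexp gave Bcl2l1 0.04 (6 h age difference) and 0.01 (24 h against 6 h at 1 week). The slide block gave Bid -0.01 and Bcl2 0.00 (1 week, 6 h), Bcl2l1 0.16 and 0.06 (6 h age difference, and 24 h against 6 h at 1 week) and Pmaip1 0.15 (24 h age difference). Apart from the probe means, the cause was not tested.

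Leaving out 1 array gave ranges across 0 for uncalled values only. They were -0.02 to 0.07 for Bbc3 (age), -0.05 to 0.02 for Bcl2 (24 h against 6 h, 8 weeks), 0.00 to 0.15 for Bcl2 (24 h age difference), -0.11 to 0.02 for Bcl2l1 (24 h against 6 h, 1 week), -0.18 to 0.04 (8 weeks, 24 h), -0.15 to 0.03 (6 h age difference) and -0.15 to 0.01 (age) for the same gene, -0.05 to 0.10 for Bid (1 week, 6 h), 0.00 to 0.09 and -0.03 to 0.07 for Mcl1 (24 h against 6 h at 8 weeks, and 24 h age difference), -0.23 to 0.03 for Pmaip1 (24 h age difference) and -0.09 to 0.03 for Trp53 (8 weeks, 6 h).

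With the replicate block the members called were 7 and 9 at 8 weeks (6 h and 24 h), 8 and 6 at 1 week, 6 for age, 3 and 6 for the age differences and 8 and 7 for 24 h against 6 h (8 weeks and 1 week). Under it Mcl1 at 1 week and 24 h (0.14, adjusted p = 0.056) and the 6 h age difference of Bbc3 (-0.33, adjusted p = 0.0606) lost their calls. Of 18 arrays, 9 correlated best with their own number. Normexp on mean signals, which had been planned, was not run for want of that column in the files used, and normexp on medians was added after the data were seen. Signal near background limits the dim probes of Bmf.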
